A study of Arabidopsis thaliana with 4 samples.

Results

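Broad phyA regions are stretches of the Arabidopsis thaliana genome, at least 3500 bp long, over which the phytochrome A peaks of 3 chromatin immunoprecipitation (ChIP-seq) replicates joined into a continuous block. Peaks of the 3 lists that shared 1 bp or more were joined, and a merged region was called shared when each replicate gave it a peak. Of 10015 merged regions 3323 were shared, and 604 of these (18.2%) reached the minimum length and are described here. The other 2719 shared regions serve as the comparison. The members were selected on a measured value, the merged length of these same peaks, so all values below describe the regions and carry no test, and no random placement was made.

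The study mapped phytochrome A (phyA) on chromatin of etiolated, that is dark-grown, seedlings aged 4 days. The seedlings were transgenic: in the phyA201 mutant, phyA fused to green fluorescent protein (GFP) was expressed from the PHYA promoter, and all ChIP seedlings had received 3 h of far-red light. Per the labels, 1% formaldehyde fixed 5 g of tissue per sample, and chromatin was pulled down with an antibody against GFP. The labels describe the 3 ChIP samples of this single condition as biologically distinct, and 1 input sample exists whose data were not used here. There was no dark, untransformed or mutant ChIP to compare with, so what a region shows outside this line and treatment was not measured.

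Phytochrome A is the receptor by which young seedlings sense far-red light. It is made in the cytosol, accumulates in darkness, and moves into the nucleus after irradiation with the help of the carrier proteins FHY1 and FHL. There it acts with DNA-binding proteins such as the PIF factors, which promote growth in the dark, and HY5, which promotes greening and shortens the stem. As general background on the assay, a protein held at a short DNA element usually gives a narrow peak with a defined summit, the position of most reads, whereas a protein spread along a gene or over several neighbouring elements gives a long one. The values below show which of these forms the broad regions took, how strongly they were enriched, and which genes they covered.

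The broad regions covered 2.96 Mb of the 8.29 Mb in shared regions. Their median length was 4512 bp, with quartiles of 3886 and 5572 bp and a maximum of 15340 bp, while the other shared regions had a median of 1889 bp. They held 801, 944 and 916 peaks of replicates 1, 2 and 3. Those were 11.3, 12.5 and 15.2% of all peaks, and they held 22.2, 21.5 and 24.0% of all reads in peaks. A peak inside a broad region had a median length of 3193, 1898 and 1694 bp in the 3 replicates, against 1477, 1168 and 1117 bp over each whole list. The rule selects on merged length and so favours long peaks, and this difference is no separate result. It was largest in replicate 1.

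Replicate 1 contributed most to the breadth. A single peak of at least 3500 bp lay in 345 of the 604 regions (57.1%) in replicate 1, in 150 (24.8%) in replicate 2 and in 94 (15.6%) in replicate 3. In 224 regions (37.1%) replicate 1 alone had such a peak. In 175 regions no replicate had one, and the length came from joining shorter peaks. A long peak in all 3 replicates was present in 36 regions. Replicate 1 also had the most reads in peaks, 11110782 against 7702516 and 4951883, and its part in the number of broad regions was measured by leaving it out. Regions merged from replicates 2 and 3 alone and found in both reached 3500 bp in 284 places instead of 604.

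**Figure D1:**
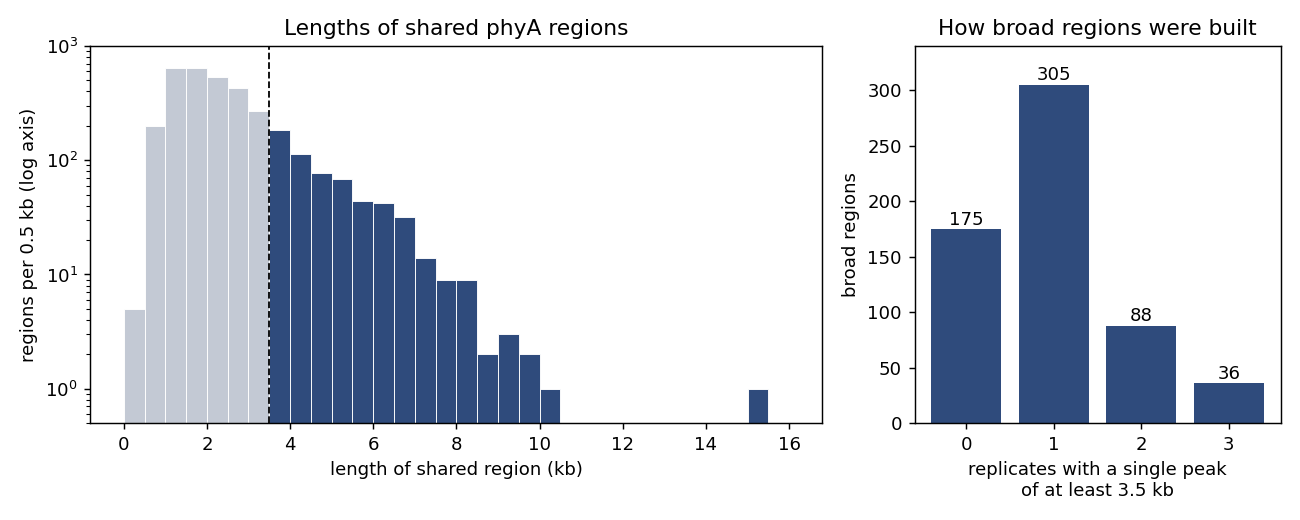
Left: number of shared phyA regions per 0.5 kb of length (kb, counts on a log axis), with broad regions dark, other shared regions pale and the minimum length dashed; right: number of broad regions by how many replicates had a single peak of at least 3500 bp. Lengths fall off without a break at the minimum, and most broad regions (305 of 604) had such a peak in exactly 1 replicate.

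The length distribution had no gap at the minimum. The shortest members were the region over GRF1, a 14-3-3 protein gene, and TL29 at 3500 bp, and the region over FAD3, a fatty acid desaturase gene, at 3501 bp. The longest shared regions left out were those over AT3G16510 and UGT88A1 at 3495 bp and over PEX11C and AT1G01830 at 3493 bp. Fold enrichment is the authors' ratio of ChIP signal at a summit to the local background. It averaged 4.56 ± 0.868 (SD, n = 3) in the GRF1 region and 4.25 ± 0.601 in the FAD3 region. In the region over AT3G16510 and UGT88A1 it averaged 4.78 ± 0.709, and in that over PEX11C and AT1G01830 4.22 ± 1.16. The values on either side of the limit thus overlapped within their SDs. All 3 summits of the AT3G16510 and UGT88A1 region lay outside both genes, and only the replicate 1 peak reached UGT88A1. Here and below a region's fold enrichment in a replicate is that of its highest peak.

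Most broad regions held more than 1 peak of at least 1 replicate. In 429 of them (71.0%) at least 1 replicate nevertheless had a single peak of at least 3500 bp. A region held a median of 4 peaks over the 3 lists and at most 10. In 196 regions (32.5%) each replicate gave exactly 1 peak, against 2444 (89.9%) of the other shared regions. Among the other shared regions of 2000 bp or more the share was 79.5%. Neighbouring peaks of the same replicate in a broad region lay a median of 132, 229 and 396 bp apart in replicates 1, 2 and 3. Of 197 gaps in replicate 1, 125 were under 200 bp, and the same held for 149 of 340 in replicate 2 and 111 of 312 in replicate 3. These gaps run from the end of 1 peak to the start of the next, and the summits of such peaks can lie much farther apart.

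Of the summed length of broad regions, 45.1% was covered by peaks of all 3 replicates, 27.7% by peaks of 2 and 27.2% by a peak of 1. The other shared regions were covered by all 3 over 54.0% of their length, and those among them of 2000 bp or more over 48.6%. The longest stretch covered by all 3 had a median of 1480 bp in broad regions and 927 bp in the others. The common part of a typical broad region was thus longer than that of another shared region in bases and smaller as a share. In the 36 regions with a long peak in every replicate the share was 71.9%, and in the 175 with none it was 36.7%. Some broad regions had no base covered by all 3 replicates, and their peaks were only linked to each other by overlap.

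The longest broad region lay on chromosome 5 from 544172 to 559511 (all positions are TAIR10 and count from 1). It overlapped 6 protein-coding genes, among them the neighbours Hsp70-2 and HSC70-1, which encode cytosolic HSP70 chaperones, and an end of DPA, which encodes a partner of the E2F cell-cycle factors. Each replicate had 3 peaks in it, and fold enrichment was 5.01, 5.68 and 5.27. The first peaks of the replicates shared a summit position, with summits at 545012, 545013 and 545046 in the flank of DPA. The last peaks did not: replicates 2 and 3 had summits at 552960 and 552983, between Hsp70-2 and HSC70-1, and replicate 1 at 556202 inside HSC70-1. All 3 replicates covered 45.1% of the region, with a longest common stretch of 4682 bp.

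The second longest, 10355 bp on chromosome 5 from 23351458 to 23361812, had the longest common stretch of all broad regions, 6559 bp. It held the whole of COL5, which encodes a B-box protein of the CONSTANS-like family, and an edge of AT5G57670. The longest peaks were 8875, 6732 and 8017 bp, and fold enrichment was 5.42, 5.26 and 6.05. None of the 5 summits lay in COL5 itself. The main summits of all 3 replicates lay on the same side of the gene, at 23359600 and 23359682 in replicates 1 and 2 and nearer to it, at 23357651, in replicate 3. Protein-coding gene bodies made up 29.6% of this region.

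Other long regions differed in how far replicate 1 set their length. At HSL1 (AT4G32010), which encodes a B3-domain transcriptional repressor also called VAL2, and KNAT5, a KNOX homeobox gene, the 9819 bp region was a single peak of replicate 1, while replicates 2 and 3 had 3 peaks each. Each replicate nevertheless had a summit within AT4G32020, at 15489631, 15489748 and 15489673, and in replicates 1 and 2 it was the highest of the region. At RPK2, a receptor-like kinase gene, a replicate 1 peak of 8973 bp made up most of a 9200 bp region of which the 3 replicates together covered 16.1%. At GATA2, which encodes a light-responsive transcription factor, the share was 14.5% of 8597 bp. Only a replicate 1 peak reached GATA2 itself (18582697 to 18584127), while the peaks of replicates 2 and 3 ended at 18581130 and 18581108. The remaining members of the 10 longest lay over EXL4, over p24delta5 and DREB26, over TIFY7 and GH9B1, over FLA16 and CPK25, and over TDT, and were 9791, 9380, 9276, 8852 and 8375 bp long.

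**Figure D2:**
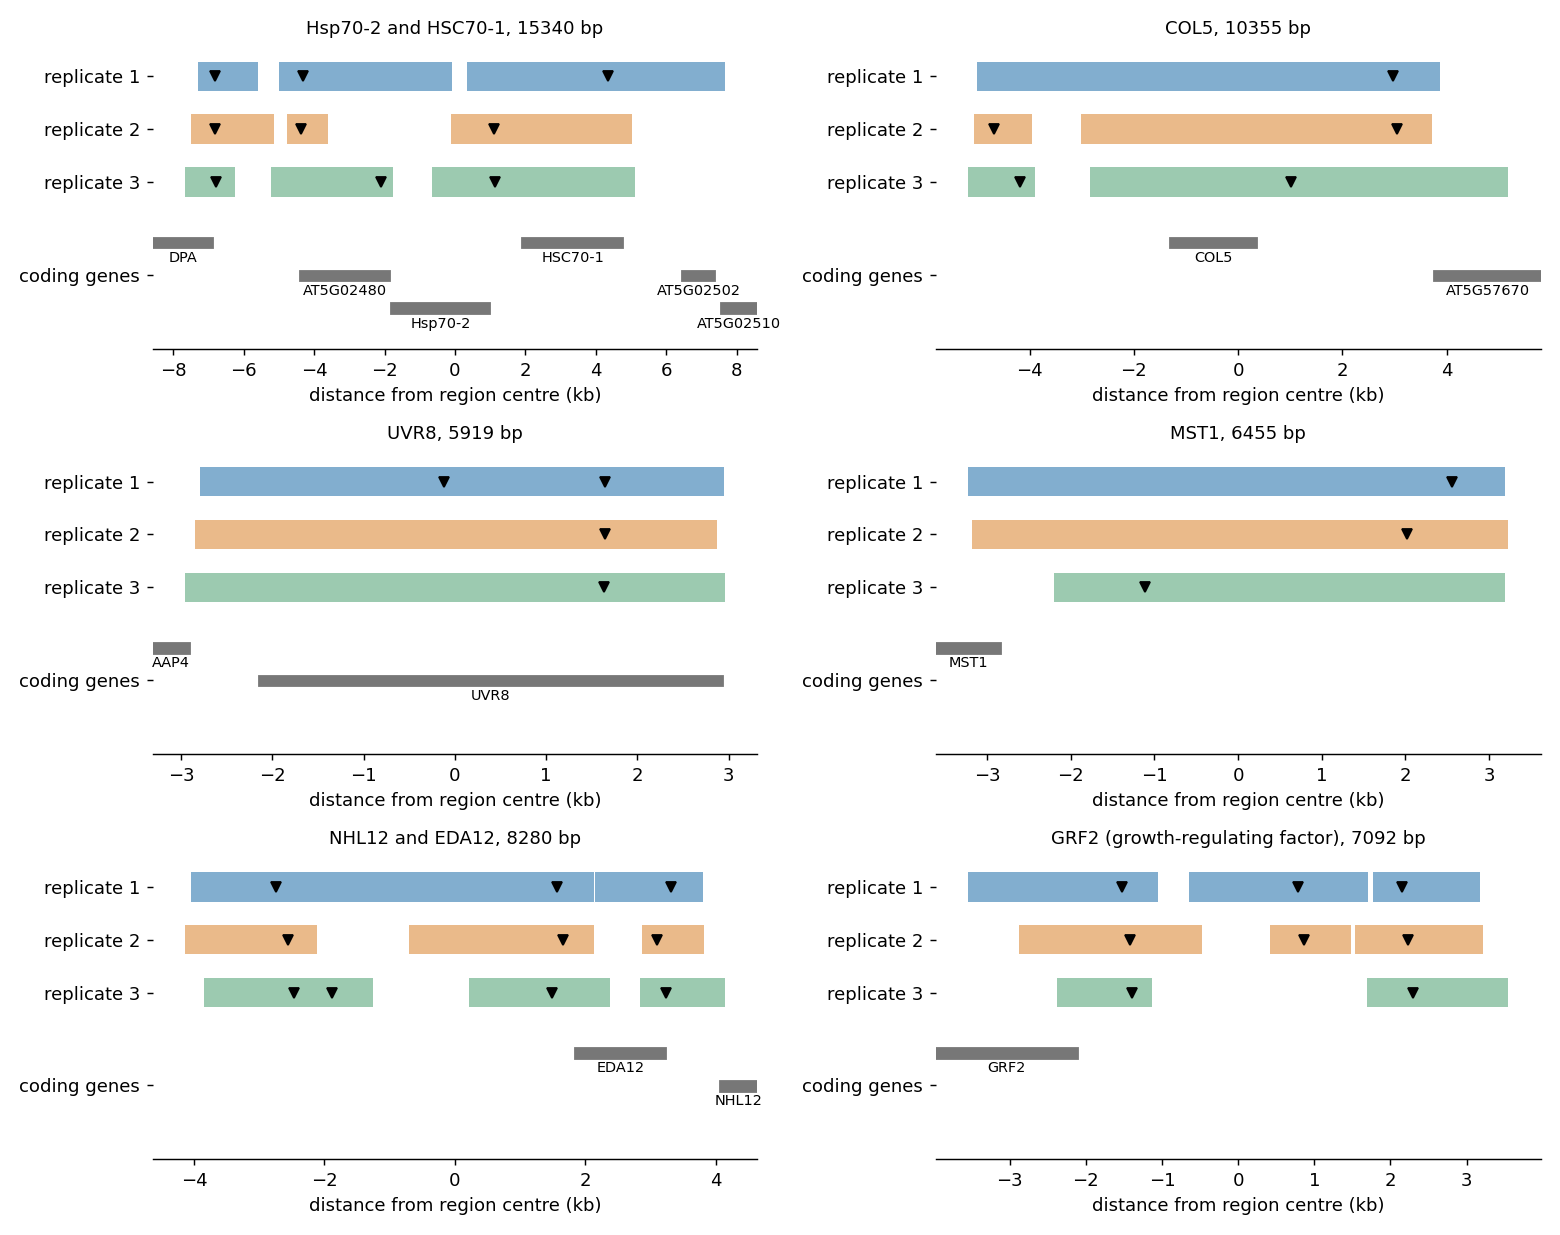
Peaks (coloured bars), summits (black triangles) and protein-coding genes (grey bars, cut at the panel edge) in 6 broad regions, by replicate, against the distance from the region's centre in kb. Summits coincide at NHL12 and EDA12 in 3 places and at GRF2 in 2, lie apart at MST1, and at UVR8 fall inside the gene.

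Broad regions were not much more densely covered by reads than shorter ones. Reads per kb, the reads of a replicate's peaks in a region over their summed length, had medians of 917, 767 and 636 in broad regions and 909, 747 and 623 in the other shared regions. The ratio of the medians averaged 1.02 ± 0.0093 (SD, n = 3). It was above 1 in each replicate, and it turned to 0.952 when only peaks with a last-column value of at most 1% were kept. Fold enrichment had medians of 4.96, 4.42 and 3.93 in broad and 4.78, 4.20 and 3.77 in other shared regions, a mean ratio of 1.04 ± 0.0069. Quartiles of broad and other regions overlapped over most of their range in all 3 replicates.

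**Figure D3:**
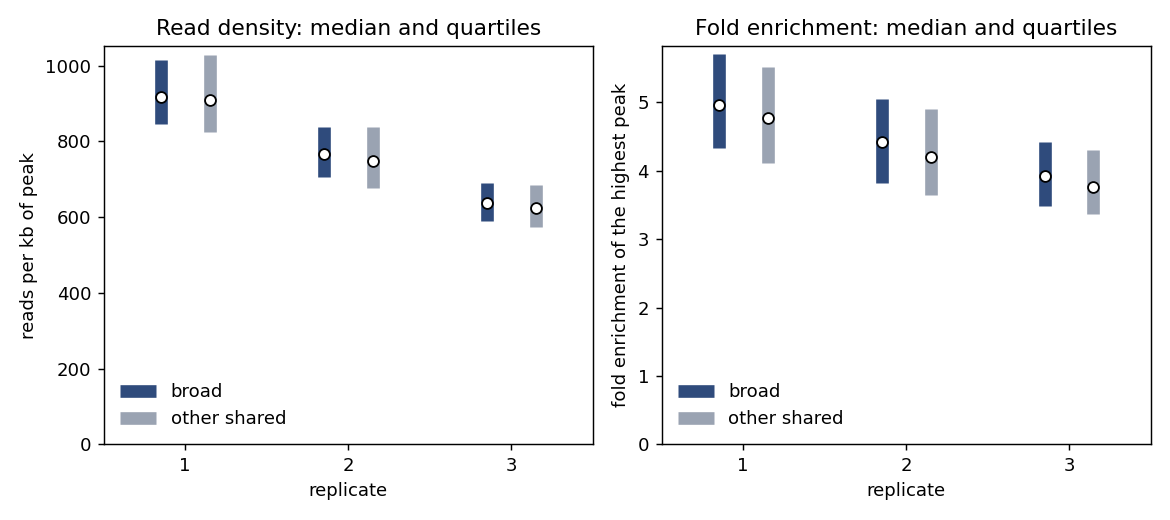
Median (circle) and quartiles (bar) of reads per kb of peak (left) and of fold enrichment of the highest peak (right) in broad regions (dark) and other shared regions (grey), by replicate. Broad medians of 917, 767 and 636 reads per kb stand beside 909, 747 and 623, and the level differs more between replicates than between the classes.

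Among the broad regions, length and level were weakly related. Spearman correlations of length with reads per kb across the 604 regions were 0.10, 0.11 and 0.08, and with fold enrichment 0.16, 0.22 and 0.18. A region's fold enrichment is the highest of its peaks, and longer regions hold more peaks. The 18 regions of 8000 bp or more had median fold enrichments of 5.47, 5.05 and 4.46, and the 185 regions under 4000 bp had 4.76, 4.27 and 3.83. Between replicates the order of the regions was more alike, with correlations of 0.61, 0.58 and 0.61 in reads per kb and 0.46, 0.34 and 0.37 in fold enrichment for replicates 1 and 2, 1 and 3, and 2 and 3. Regions are not independent replicates, and these are descriptions across regions of the same 3 libraries.

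Regions in which every replicate had a long peak were also denser. Their median reads per kb were 1164, 852 and 723, and those of the regions with no long peak were 875, 739 and 607. Median fold enrichment was 5.28, 4.58 and 4.08 in the former and 4.82, 4.19 and 3.78 in the latter. Among these 36 regions were those over APX1, which encodes a cytosolic ascorbate peroxidase, SAMDC, an enzyme gene of polyamine synthesis, and the D-type cyclin genes CYCD1;1 and CYCD3;1. CZF1 and SZF1, related zinc finger genes of stress responses, lay in separate regions of this kind, 6273 and 4642 bp long. AAP5 and CAT6, both amino acid transporter genes, did too.

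The region over UVR8 stood apart from all other broad regions in level. UVR8 encodes the UV-B photoreceptor. The region ran from 25553606 to 25559524 on chromosome 5 (5919 bp), held the whole of UVR8 (25554416 to 25559499) and touched AAP4, an amino acid permease gene. It had 3361, 4134 and 2547 reads per kb and fold enrichments of 28.1, 34.9 and 24.4, a mean of 29.1 ± 5.29 (SD, n = 3). All 3 replicates covered 95.6% of it, and all of its summits lay in UVR8, with 3 of them at 25558195, 25558206 and 25558210. These values were far above the medians of broad regions in every replicate.

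The next regions by rank of reads per kb were much nearer to the bulk. The region over RAV1, which encodes a growth-repressing transcription factor, and MAP1C had 1630, 1222 and 1211 reads per kb over 8316 bp, and its longest stretch without a coding gene was 5324 bp. The region at MST1, a sulfurtransferase gene, had 1631, 1118 and 922 reads per kb over 6455 bp, although gene bodies made up only 6.03% of it. It held a transcribed pseudogene, AT1G79245, of 4921 bp, and a tRNA gene, AT1G79240, of 73 bp. Its summits at 29809423, 29808887 and 29805756 in replicates 1, 2 and 3 did not coincide. ELIP1, which encodes an early light-inducible chloroplast protein, followed with 1482, 1248 and 870 reads per kb.

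The rest of the 10 densest regions lay over HSP70 and FYD, AT1G32910 and AT1G32920, RBCS1A and ABA4, AT1G75800 and AT1G75810, EXL2 and AT5G64270, and AT5G25280 and AT5G25290. RBCS1A encodes a small subunit of Rubisco, the carbon-fixing enzyme. Its region was made of 1 peak per replicate with summits at 25047680, 25047496 and 25047601, in the flank between RBCS1A and ABA4, and fold enrichment was 6.40, 4.99 and 5.15. The region over HSP70 and FYD was 3723 bp long, of which gene bodies made up 90.6%, and its fold enrichments of 3.85, 3.74 and 3.46 were below the medians of broad regions. A high read density over a region and a high summit did not always go together.

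Broad regions covered 1256 of 27444 protein-coding genes by at least 1 bp, a background of 4.58%, and contained 521 of them whole, 1.9%. A gene was counted on the merged region, so it could count where a peak of only 1 replicate reached it. GATA2, reached by replicate 1 alone, counted as whole in this way. Without replicate 1 they covered 593 genes, and with the stricter peaks 585. A region overlapped a median of 2 coding genes, against 1 for the other shared regions. It overlapped none in 19 regions, 1 in 149, 2 in 241, 3 in 148, 4 in 41, 5 in 4 and 6 in 2. At least 1 gene lay whole in 416 regions (68.9%), against 315 (11.6%) of the other shared regions, whose median length of 1889 bp is below that of the median coding gene (2078 bp). Genes contained whole had a median length of 1705 bp. Per kb of region, broad regions overlapped fewer coding genes than the other shared regions, 0.429 against 0.637, where a gene touched at its edge counts in full. They contained more whole genes per 100 kb, 17.6 against 6.36.

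The regions with the most genes, 5 or 6 each, were 4203 to 15340 bp long. Besides the 15340 bp region over Hsp70-2 and HSC70-1, 6 genes were overlapped by a region of 6868 bp at AGP17, which encodes an arabinogalactan protein of the cell wall, and PUB4, a ubiquitin ligase gene. Regions with 5 genes lay at LHCB6, an antenna protein gene of photosystem II, at AT3G07460, at RPN12b, a proteasome subunit gene, and at HEN4 and OPT4. In the LHCB6 region gene bodies made up 93.2% of 7393 bp, and each replicate had 3 peaks. In the HEN4 and OPT4 region they made up 99.7% of 4203 bp.

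The share of length in gene bodies was 54.7% in broad and 51.6% in other shared regions. The longest stretch without a coding gene had a median of 1612 bp in broad regions and 796 bp in the others. It increased with region length to a median of 2818 bp in the 18 regions of 8000 bp or more. The share in gene bodies did not follow length in this way: its median over regions was 62.7% between 5000 and 6000 bp and 50.6% at 8000 bp or more. The longest class also overlapped the most genes, a median of 3.5, so these regions held both more genes and longer stretches free of them.

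**Figure D4:**
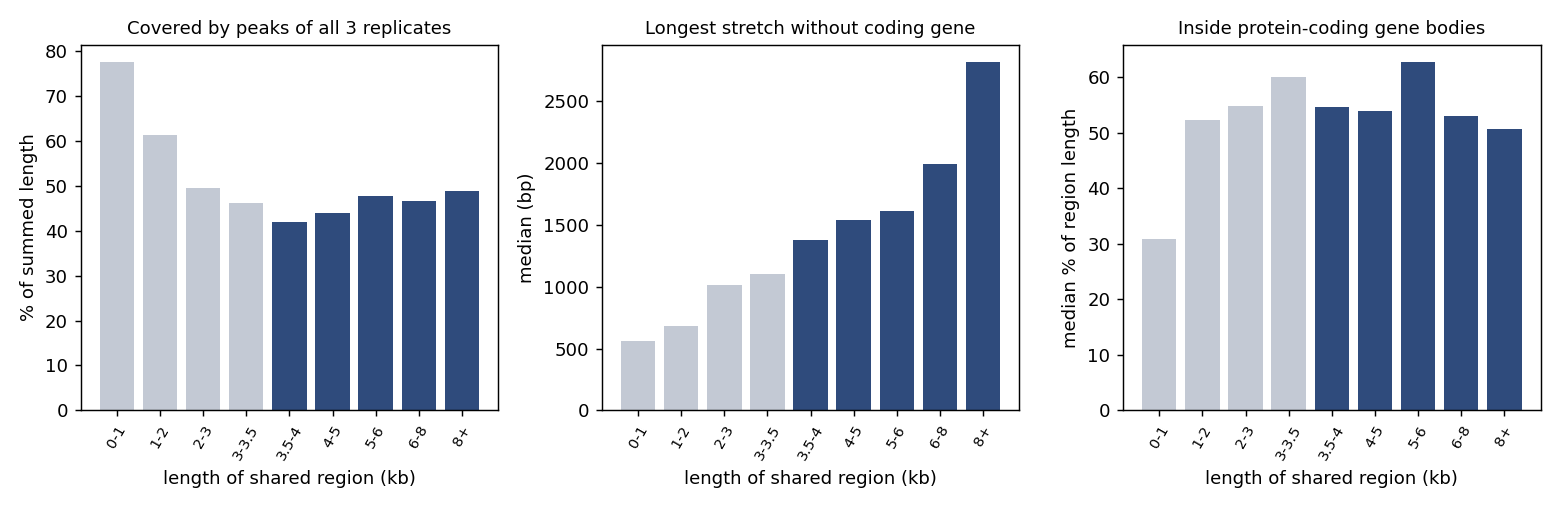
Shared regions by length class (kb), broad classes dark: share of summed length covered by peaks of all 3 replicates (left), median longest stretch without a protein-coding gene (centre, bp) and median share of the region in protein-coding gene bodies (right). The stretch without a coding gene goes up to 2818 bp in the longest class, while the share in gene bodies stays between 50.6 and 62.7% in the broad classes.

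Summits of broad regions lay in gene bodies in 38.6, 38.2 and 35.6% of cases in replicates 1, 2 and 3. In the other shared regions the shares were 31.7, 31.5 and 30.9%. The flank, meaning the 1000 bp beyond either end of a coding gene, held 45.8% ± 0.278 (SD, n = 3) of broad summits and 53.4% ± 0.438 of the others. The median distance of a broad summit to the nearest gene end was 257, 279 and 283 bp, against 205, 217 and 219 bp. Broad summits were thus somewhat more often inside genes and farther from gene ends in each replicate. The gene table used gives no strand, so upstream and downstream flanks cannot be told apart.

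The summits of the 3 replicates coincided in a smaller share of broad regions than of other shared regions. Summits were put in a group where neighbouring ones lay no more than 200 bp apart. In 289 broad regions (47.9%) no group held all 3 replicates, in 297 (49.2%) there was 1 such group, in 17 there were 2 and in 1 there were 3. Of the other shared regions 26.5% had none, and of those among them of 2000 bp or more 38.6%, so part of the difference went with length. Where a group of all 3 existed, its summits spread over a median of 101 bp in broad and 91 bp in other shared regions. Of the 334 groups in broad regions 33.8% lay in a gene body, 49.7% in a flank and 14.1% away from any gene.

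In 18 broad regions there was more than 1 common summit group. That was 2.98% of broad regions (95% Wilson interval 1.89 to 4.66, for counting error only), against 0.294% of the other shared regions. Longer regions have more room for groups. Per 10 kb of region there were 1.13 common groups in broad and 3.77 in other shared regions. The broad share was 0.353% with the stricter peaks and 5.20% without replicate 3. In the 18 regions the outer groups lay a median of 2911 bp apart. The only region with 3 groups, 8280 bp at EDA12 and NHL12, had its groups centred at 15100319, 15104444 and 15106118 on chromosome 2, 5799 bp from first to last. The first of these lay away from genes, the second in the flank of EDA12 and the third inside EDA12.

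Among the regions with 2 groups, the groups at AT2G47440 lay 4411 bp apart, those at AT3G07340 and AT3G07350 4599 bp, and those at GRF2 3648 bp. GRF2 here is AT4G37740, which encodes a growth-regulating transcription factor. Its region extended well away from the gene, with a longest stretch without a coding gene of 5650 bp. Groups at PUB22, a stress-related ubiquitin ligase gene, lay 3590 bp apart, and those at AFR 3366 bp. AFR encodes an F-box protein known as a component of phyA signalling. The other named regions with 2 groups lay at BXL2, a beta-xylosidase gene, at CCS, a copper chaperone gene, at OCT5 and at AT1G19000.

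Gene lists by function were then read against the background of 4.58%. Here too a gene counted where the merged region overlapped it, even if a peak of only 1 replicate reached it. A gene that carries a symbol was overlapped more often than that (610 of 10374, 5.88%), and all lists are built from symbols. Of the 21 lists, 19 had shares above 5.88%, and the WRKY and NAC families had shares below 4.58%. Leaving out a replicate lowered the share of all coding genes as well. It was 2.16% without replicate 1, 3.6% without replicate 2 and 4.34% without replicate 3, the background for list counts given without a replicate. The share of list members among genes overlapped by any shared region is a second measure, since a list can be bound often without being bound broadly. Over all coding genes 28.4% of the 4420 genes overlapped by a shared region were overlapped by a broad one. Fold enrichment given at a list gene is that of its region's highest peak in each replicate, whose summit can lie outside the gene. No list was tested, and nothing is called particular to it.

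**Figure D5:**
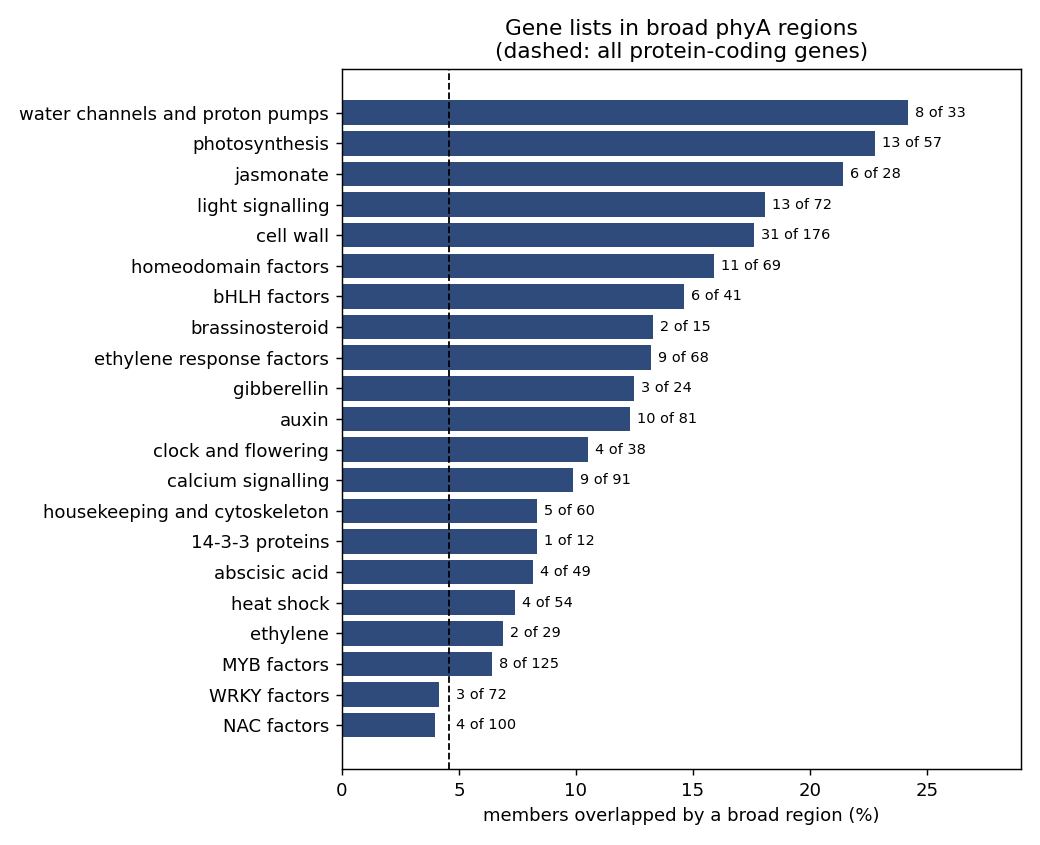
Share of each gene list's members overlapped by a broad region by at least 1 bp (%), with the number overlapped of all members; the dashed line is the 4.58% of all protein-coding genes. Water channels and proton pumps (8 of 33), photosynthesis (13 of 57) and jasmonate (6 of 28) have the highest shares, and WRKY (3 of 72) and NAC (4 of 100) lie below the line.

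Light signalling genes were overlapped in 13 of 72 cases (18.1%), and in 8 without replicate 1. After UVR8 the highest mean fold enrichment was at HY5, where the replicates gave 8.47, 11.5 and 7.24 (9.08 ± 2.21, SD, n = 3). That region was 5310 bp long and was a chain of 7 peaks with no common summit group. PAR1, an atypical bHLH gene that restrains shade responses, lay whole in a 6653 bp region at 6.51, 6.48 and 6.76. The B-box genes COL5, BBX28, BBX19, STO and BZS1 each lay whole in a region, of 10355, 7909, 6520, 4063 and 6640 bp.

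Receptor genes and receptor partners were part of the same list. PHYB, the phytochrome of red light, was touched by a 3579 bp region at 3.45, 4.35 and 3.62, with no summit inside the gene. PIF4, which encodes a growth-promoting bHLH factor, was overlapped by a 4518 bp region at 5.00, 3.32 and 4.34, with a summit of each replicate inside the gene. The phototropin partners NPH3 and RPT2 were overlapped by regions of 6923 and 4807 bp. FYPP3, a phosphatase gene whose product acts on phytochromes, was touched by a region of 5194 bp. Mean fold enrichment of the regions at these genes lay between 3.77 at NPH3 and 4.74 at FYPP3.

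Photosynthesis genes were overlapped in 13 of 57 cases (22.8%), 12 of them whole, in 13 regions. Besides RBCS1A the highest mean values were 5.44 ± 1.83 at PSI-P, 5.17 ± 0.825 at PSBO1, a subunit gene of the oxygen-evolving complex, and 5.10 ± 1.25 at the antenna gene LHCB4.1. Of those overlapped by any shared region, 38.2% were in a broad one. Genes of this list are short, with a median of 1419 bp, and their regions had a median length of 4254 bp. The count depended on the length limit and the libraries: it was 22 at a minimum of 3000 bp, 8 at 4000 bp and 6 without replicate 1.

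Cell wall genes gave the largest number of overlapped members of the lists, 31 of 176 (17.6%), in 29 regions, and 17 without replicate 1. The highest means were at GAE1, an enzyme gene of pectin precursor synthesis, with 8.80, 6.78 and 6.49, and at EXL2, with 7.09, 6.78 and 6.21. CEV1, a cellulose synthase gene, had 5.90, 7.77 and 3.98, and the region over EXL4 5.52, 5.63 and 5.71. The only summit inside EXL4 itself, of replicate 3, had 3.02. EXL2, EXL3 and EXL4 belong to the EXORDIUM family, linked to cell expansion. XTH18 and XTH19 shared a region of 6131 bp, and XTH25 and TCH4 shared 1 of 4116 bp. All 4 encode xyloglucan-modifying enzymes, and each pair lies side by side.

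Water channels and proton pumps had 8 of 33 members overlapped (24.2%), all of them aquaporins, and 5 without replicate 1. These proteins let water pass the plasma membrane (PIP) or the vacuolar membrane (TIP). Of the 14 overlapped by any shared region 57.1% were in a broad one. PIP3 had 6.08, 4.77 and 4.64, PIP1C 5.19, 5.52 and 4.29, TIP1;3 6.13, 3.73 and 4.00, and PIP2E 5.60, 4.50 and 3.39. The 8 regions had a median length of 6008 bp, above the 4512 bp of all broad regions.

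Among hormone genes, jasmonate genes were overlapped in 6 of 28 cases (21.4%), and in 2 without replicate 1. JAZ1 and TIFY7, which encode JAZ repressors, averaged 5.44 ± 0.997 and 5.33 ± 1.18, and AOS, an enzyme gene of jasmonate synthesis, 4.93 ± 1.52. MYC2, the factor that JAZ proteins repress, lay whole in a 5640 bp region at 6.10, 4.86 and 3.80, with a summit of each replicate inside the gene. JAZ10 and LOX3 were the other members.

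Auxin genes were overlapped in 10 of 81 cases (12.3%), and in 6 without replicate 1. LAX1, an auxin importer gene, had 6.83, 6.13 and 3.43, and AFB2, a receptor gene, 5.62, 4.88 and 4.58. The auxin transporter gene PIN3 lay whole in an 8042 bp region at 5.21, 4.50 and 4.19, with a summit of each replicate inside it. The Aux/IAA genes IAA16, IAA20 and IAA9 and the response factor genes ARF2 and ARF6 were also overlapped.

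Gibberellin genes were overlapped in 3 of 24 cases (12.5%) and in 0 without replicate 1. At GID1B, a gibberellin receptor gene, fold enrichment was 10.2, 6.60 and 4.78, at GA2OX2, a catabolic enzyme gene, 5.86, 4.72 and 3.21, and at GAI, a DELLA repressor gene, 4.69, 4.67 and 3.96. In the brassinosteroid list (2 of 15, 13.3%) the receptor gene BRI1 was touched by 2 neighbouring regions and BZR1 by 1. The abscisic acid list (4 of 49, 8.16%) held the receptor genes PYL5 and PYL4 and the phosphatase genes ABI1 and ABI2, and had 1 member overlapped without replicate 1. PYL5 had 8.09, 6.61 and 7.05, the highest mean of that list. The ethylene list (2 of 29, 6.90%) included CTR1, a kinase gene that represses ethylene responses, at 6.25, 6.86 and 4.24, and had 0 members overlapped without replicate 1 and 0 without replicate 3.

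Transcription factor families differed in their shares. Homeodomain factors were overlapped in 11 of 69 cases (15.9%), and in 3 without replicate 1 and 7 without replicate 2. The regions with the highest means were those at KNAT5 (6.16 ± 1.89), HB25 (5.61 ± 0.793), HB31 (5.48 ± 0.319) and HB4 (5.29 ± 0.677). No summit lay in KNAT5, and the highest summits of its region in replicates 1 and 2 lay in AT4G32020. HB4 and HAT3 encode HD-Zip II factors of the shade response. Other bHLH factors were overlapped in 6 of 41 cases (14.6%), and in 3 without replicate 1 and 3 without replicate 2. The highest means were at AT3G07340 (5.77 ± 0.106), AIF1 (5.42 ± 0.403), BEE1 (5.27 ± 0.596) and AT3G17100 (4.09 ± 0.832). Ethylene response factors were overlapped in 9 of 68 cases (13.2%), each of them whole, and in 4 without replicate 1. ERF4 had 7.63, 5.41 and 4.75 and ERF104 5.92, 6.83 and 4.38, followed by ERF5 and by CBF1, a regulator of cold acclimation.

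MYB factors were overlapped in 8 of 125 cases (6.40%), with the highest means at MYB66 (5.13 ± 0.747), MYB73 (4.68 ± 0.506), MYB95 (4.39 ± 1.10) and MYBR1 (4.39 ± 0.445). PAP1, a regulator of anthocyanin synthesis, had the lowest mean of the 8, 3.89 ± 0.503. WRKY factors were overlapped in 3 of 72 cases (4.17%), namely WRKY18, WRKY13 and WRKY15. NAC factors were overlapped in 4 of 100 cases (4.00%), namely NAC083, NAC062, RD26 and NAC1. Without replicate 1 these 3 families had 3, 2 and 0 members overlapped. For NAC and WRKY the shares were near or below the background.

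The clock and flowering list had 4 of 38 members overlapped (10.5%), which were 22.2% of its members overlapped by any shared region. The count was 2 without replicate 1, 2 without replicate 2 and 2 without replicate 3. AGL20 (SOC1), a flowering integrator gene, had 8.21, 5.76 and 3.78. CCA1 and PRR9, morning-expressed clock genes, were touched by regions of 3619 and 3668 bp, and COL5 belongs to this list too. PSI-P lies in the same region as CCA1.

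Calcium signalling genes were overlapped in 9 of 91 cases (9.89%), with CPK28 at 6.70, 4.84 and 4.06, followed by CPK25. Heat shock genes were overlapped in 4 of 54 cases (7.41%), namely Hsp70-2, HSC70-1, HSP70 and HSFB2A. Housekeeping and cytoskeleton genes gave 5 of 60 (8.33%), namely UBQ10, GAPC1, TUB5, ACT2 and ACT7, with 2 left without replicate 1 and 3 without replicate 3. Another 20 of the 60 were overlapped by a shared region but by no broad one. The 14-3-3 list gave 1 of 12, GRF1, at the length limit, and 0 without replicate 2.

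Genes of other kinds were overlapped at various rates, to be read beside the 4.58% of coding genes. Broad regions overlapped 163 of 3480 long noncoding RNA genes (4.68%), 24 of 287 snoRNA genes (8.36%) and 22 of 625 tRNA genes (3.52%). They overlapped 6 of 3917 pseudogenes (0.153%) and 7 of 926 transcribed pseudogenes (0.756%). The other shared regions overlapped 356 long noncoding RNA, 26 snoRNA and 107 tRNA genes, and also few pseudogene loci, 17 pseudogenes and 23 transcribed ones. Scarce pseudogenes were thus common to shared regions of either kind. MST1's neighbour AT1G79245 was among the few in broad regions. Coding genes in the same regions were not separated from these counts.

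Broad regions were found on all 5 chromosomes, with 150, 102, 120, 90 and 142 on chromosomes 1 to 5, or 17.1, 19.9, 17.0, 18.3 and 19.3% of the shared regions there. Neighbouring broad regions lay a median of 74909 bp apart, but 17 pairs were separated by less than 1000 bp and 38 by less than 5000 bp. The closest, 8 bp, separated the region of CAT2, a catalase gene, from that of PIP3, and both together spanned 10435 bp on chromosome 4. The pair over RPK2 was 12 bp apart and spanned 15694 bp, and the pair at GATA2 618 bp apart and 16313 bp. The last 2 spans exceed the longest single region, so the division into 604 regions depends in places on gaps of a few bases.

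Some genes were reached from both sides. In all, 15 coding genes were overlapped by 2 broad regions each. At BRI1 regions of 4953 and 6177 bp lay 690 bp apart, with fold enrichments of 8.17, 5.03 and 3.79 in the first and 4.74, 4.44 and 4.01 in the second, and no summit lay in BRI1. At TIC, a regulator of the clock, regions of 5899 and 6064 bp lay 765 bp apart. The first had 8.04, 5.58 and 5.51 and the second 7.56, 6.18 and 5.30, both above the medians of broad regions in every replicate.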

How the data were processed

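ChIP-seq of phyA-GFP was analysed from the authors' 3 deposited peak lists, 1 per replicate. Reads were aligned with Bowtie to TAIR10, per the submitters' processing notes. Which caller and settings made the peaks, and whether the input was used, is not given in the sources used here. The columns are unnamed and follow the order of a MACS 1.4 table. The authors' read count per peak is a raw whole number. The deposited score is never used for a result. Fold enrichment as deposited is a linear ratio of at least 2.95 in each list. The last deposited column, read as a false discovery rate, is in percent. Depth beyond the reads in peaks is unknown.

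Peaks were merged with Python 3.11.15 and pandas 2.3.3 as the report describes; the merging was checked on simulated peaks and with bedtools 2.31.1. The 27444 coding genes of the NCBI table (TAIR10.1, same nuclear coordinates) gave names; 28 name collisions were removed from the 21 lists. The members and lists were chosen with earlier results of these data known. Regions were named as the 10 longest, 10 densest in reads, 10 with most genes, 10 with most common summit groups, 5 with the longest common stretch and 2 on either side of the limit; most lists name the genes with the highest mean fold, and other overlapped list genes were added after their values were seen. The pairs of close regions, the regions with a long peak in all replicates and those without a coding gene were picked after their values were seen. No sequence was used here, so the planned motif counts were not made, and a ribosomal list was left out because few of its genes carry symbols. Alternatives were length limits of 3000 and 4000 bp, merging on 200 bp, peaks with a last column of at most 1%, the highest peak alone, whole genes, a long peak in each replicate, and leaving out each replicate. Wilson intervals cover counting error only. A member of the ethylene list is not reported here by name.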

Additional observations from a re-analysis of the deposited data

How the results depend on the processing

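The number of broad regions was 604 as reported, 283 with peaks whose last column was at most 1%, 36 with a long peak required in every replicate, and 284 to 577 when a replicate was left out. Genes overlapped numbered 1256, against 585 with the stricter peaks, 521 when contained whole, and 593 to 1190 with a replicate left out. The lowest of both ranges came without replicate 1. The median number of genes per region was 2, and 1 when counted whole. The ratio of reads per kb was 0.952 with stricter peaks, 1.04 from the highest peak alone, and 1.03 to 1.06 with a replicate left out. The share in gene bodies was 53.5% with stricter peaks and 54.1 to 57.3% with a replicate left out, and the share of summits in gene bodies 36.8 to 40.6%. The share of regions with 2 or more common summit groups was 0.903% when peaks were merged on 200 bp, 0.353% with stricter peaks, and 4.31 to 5.20% with a replicate left out, where a group needs only 2 replicates. For the same reason the length covered by all replicates was 58.2 to 64.4%. Otherwise the cause of these shifts was not tested. Of 64 alternatives 43 left a result within a set limit and 21 moved it beyond. The limit was the spread between replicates or, for counts, 1.5 times. For the share of regions with 2 or more common summit groups it was the Wilson interval. Counts per gene list under 7 alternatives, chosen after seeing the data, were lower without replicate 1 in most lists. The share of all coding genes was lower there too, 2.16% against 4.58%. No paired analysis was possible because there is only 1 ChIP group. Library totals are unknown, so differences in depth between replicates cannot be told apart from differences between samples.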

Other observations

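Among the broad regions 19 overlapped no protein-coding gene. The nearest coding gene lay a median of 831 bp away and at most 1959 bp, and 13 of these regions had a coding gene within 1000 bp. The longest, 7356 bp on chromosome 2 from 19172717 to 19180072, held the microRNA gene MIR166a, with fold enrichments of 6.75, 4.69 and 4.16. The miR166 family is known to target HD-Zip III transcripts in leaf and stem development. A second region without a coding gene, 4323 bp long with fold enrichments of 4.53, 3.99 and 4.12, lay 731 bp from it, so that the pair, gap included, spanned 12410 bp of the interval between HB-7 and AT2G46690. Regions of this kind also lay beside IAA2, KNAT3, TCP15, SPT and EMF1. SPT encodes a bHLH factor of carpel and seedling growth, and its region, 4750 bp long and ending 841 bp from the gene, had fold enrichments of 4.60, 4.81 and 4.55.

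In all 7 of 326 microRNA genes (2.15%) were overlapped by a broad region, beside 4.58% of coding genes. The other shared regions overlapped 17 microRNA genes. Besides MIR166a the 7 in broad regions were MIR159a, MIR159b, MIR390a, MIR170, MIR835 and MIR5024. The miR159 family is known to target GAMYB-like transcripts, and miR390 starts the production of small RNAs that act on auxin response factors. MIR159a lay in a 6412 bp region over CDKD1;1, a gene of a cyclin-dependent kinase, in which each replicate had a long peak (4909, 4225 and 3720 bp) and fold enrichment was 5.73, 3.64 and 5.37. MIR5024 lay in the 3835 bp region over AAP5, of which all 3 replicates covered 92.6%.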
